A study of Homo sapiens with 3 samples.

Results

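Activity-regulated immediate early genes are genes that a neuron transcribes soon after a stimulus, most of them without first making new proteins. Accessible chromatin was described at 10 of them: FOS, FOSB, JUN, JUNB, EGR1, NPAS4 and NR4A1, which encode transcription factors, and ARC, BDNF and HOMER1, which encode proteins that act at synapses. The genes were chosen by name for their known function. All accessible intervals with a summit inside the RefSeq gene body or within 50 kb of its outer ends were taken, which gave 81 of the 65234 distinct intervals in the list, with 182 of its 145092 summits. No interval fell into the windows of more than 1 of the genes. The cells, labelled neurons, came from the established human pluripotent line KOLF2.1J, which is of the induced kind and here carried hNGN2, a gene for a neurogenic transcription factor. They were collected on day 14 of differentiation. ATAC-seq, in which the Tn5 transposase inserts adapters into accessible DNA, was done on 3 biological replicates of this 1 line, and the labels name no treatment, stimulation or comparison group. The authors combined the replicates into 1 list, so no value per sample and no spread between replicates can be given, and no test across samples was possible.

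In resting neurons these genes are known for promoters that are kept ready for use. Calcium entry and kinase signals reach CREB, which binds the cyclic AMP response element (CRE), and SRF with its ETS-family partners, which bind CArG boxes in serum response elements. FOS and JUN proteins then pair as AP-1 and act with the other factors on later genes. ATAC-seq measures accessibility and not transcription, and no RNA was analysed here.

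Promoter sequence is shown first, because the words known to link these genes to CREB and SRF can be read in it. RefSeq windows of 300 bases (250 before to 50 after each start, GRCh38.p14) matched 9 of the 10 genes, with 15 windows in all, and ARC had no window. The 150 bases before the start are printed for the 7 genes with a CRE core and for HOMER1, which had none of the marked words. Capitals mark the CRE core TGACG on either strand, the CArG box, the TATA box TATAAA and the MEF2 word.
FOS, chr14:75278678-75278827, plus strand: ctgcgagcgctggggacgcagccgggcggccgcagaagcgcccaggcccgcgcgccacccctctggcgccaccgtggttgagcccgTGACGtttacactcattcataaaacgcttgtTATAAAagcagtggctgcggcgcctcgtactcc
FOSB, chr19:45467846-45467995, plus strand: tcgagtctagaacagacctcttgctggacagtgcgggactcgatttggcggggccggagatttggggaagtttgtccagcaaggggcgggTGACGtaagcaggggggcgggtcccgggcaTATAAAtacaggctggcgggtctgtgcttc
JUNB, chr19:12791336-12791485, plus strand: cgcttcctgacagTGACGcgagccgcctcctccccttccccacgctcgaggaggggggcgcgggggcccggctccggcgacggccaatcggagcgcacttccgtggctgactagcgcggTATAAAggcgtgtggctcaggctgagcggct
JUN, chr1:58784048-58784197, minus strand: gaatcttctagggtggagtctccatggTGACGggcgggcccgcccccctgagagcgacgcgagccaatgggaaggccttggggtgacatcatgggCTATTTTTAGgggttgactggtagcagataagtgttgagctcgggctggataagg
EGR1, chr5:138465329-138465478, plus strand: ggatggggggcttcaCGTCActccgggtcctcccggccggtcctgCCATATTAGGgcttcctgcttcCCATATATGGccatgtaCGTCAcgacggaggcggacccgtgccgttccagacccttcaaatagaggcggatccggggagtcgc
NPAS4, chr11:66420854-66421003, plus strand: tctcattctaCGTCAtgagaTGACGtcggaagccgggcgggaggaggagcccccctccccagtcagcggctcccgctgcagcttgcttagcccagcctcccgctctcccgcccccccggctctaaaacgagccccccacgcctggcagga
BDNF, chr11:27701622-27701771, minus strand: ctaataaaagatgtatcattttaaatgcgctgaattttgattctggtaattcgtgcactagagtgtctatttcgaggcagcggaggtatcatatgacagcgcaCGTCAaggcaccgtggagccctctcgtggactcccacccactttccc
HOMER1, chr5:79514135-79514284, minus strand: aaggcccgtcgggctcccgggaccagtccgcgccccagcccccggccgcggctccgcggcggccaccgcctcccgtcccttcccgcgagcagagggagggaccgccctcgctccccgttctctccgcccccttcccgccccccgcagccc
The CRE core was found in the windows of 7 of the 9 genes and in 8 of the 15 windows, against 24.6% of all 35116 RefSeq promoter windows (and 32.1% of the 19526 windows with a summit within 1 kb of their start). The 2 NPAS4 windows overlap and hold the same CRE cores and GC boxes, so the same bases are counted in both windows. The full CRE word TGACGTCA, which contains the core on both strands, was in none of the 15 windows and in 1.85% of all windows. EGR1 alone among the 9 genes had a CArG box. It had 2 of them, at bases -105 to -96 and -83 to -74 counted back from the start, and its window also held GGAA, the ETS core. A CArG box was present in 1.29% of all windows, and one together with GGAA in 1.25%. JUN alone had the MEF2 word, at -55 to -46, which 0.572% of all windows held. The TATA box was found in 3 of the 15 windows, those of FOS (-33 to -28), FOSB (-30 to -25) and JUNB (-31 to -26), against 11.5% of all windows. No window held the AP-1 word TGANTCA (7.71% of all windows), the NR4A word AAAGGTCA (1.22%) or the neural E-box CAGCTG (17.9%). Another neural E-box, CAGATG, was in FOS and BDNF (14.7% of all windows), and the E-box CACGTG was in BDNF alone (7.26%). The GC box GGGCGG, which Sp1 factors bind, was in 9 of the 15 windows (45.0% of all windows and 66.4% of those with an open start). By gene it was in 7 of the 9, but the shares are per window and a gene with several windows has more chances. The EGR site GCGNGGGCG, which can overlap a GC box, was in 3 of the 15 windows, of BDNF, EGR1 and HOMER1. All windows held it in 9.43% of cases and those with an open start in 15.1%. All words were sought on both strands. These matches describe letters in fixed windows. Elements farther from a start were not searched.

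At the start, every gene that could be scored was accessible. A start was called open when a summit lay within 1 kb of any listed transcript start, and this held for 9 of 9 genes, against 72.3% of the 15842 protein-coding genes with a listed start and 55.8% of genes of every kind. ARC was scored by its outer ends. By that measure, a summit within 1 kb of either outer end, 9 of the 10 genes passed, ARC among them and NR4A1 not, against 68.8% of protein-coding genes. The start base itself was covered by an interval in 8 of the 9 genes (70.6% of protein-coding genes), the exception being NR4A1. Strength was read on 2 scales. Fold enrichment is the authors' ratio of the tags at a summit to a local background, and the tag count of the pooled samples was recovered from that ratio and its p-value. Each tag count is given with its exact Poisson 95% interval, which covers counting error only.

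Among the AP-1 genes, FOS had its strongest summit at -22 bp, where negative distances lie before the start. That summit had a fold enrichment of 7.26 and 1279 tags (1210 to 1351), in an interval of 1553 bp with 3 summits. Another of these, at -310 bp and so outside the searched window, had 1171 tags (1105 to 1240). JUN, the main partner of FOS in AP-1, had a summit at -170 bp with a fold enrichment of 8.50 and 2283 tags (2190 to 2379). That summit is also within 1 kb of an end of JUN-DT, a neighbouring transcript, so the interval cannot be assigned to JUN alone. FOSB had 969 tags (909 to 1032) at -302 bp and 558 tags (513 to 606) at -35 bp, with fold enrichments of 6.52 and 3.74. The promoter interval of FOSB was short, at 701 bp, and was followed inside the gene by a stronger one. On chromosome 19 the second interval ran between 45468897 and 45469999. It peaked 1342 bp past the start, at 1277 tags (1208 to 1349) and a fold enrichment of 8.45. JUNB had 823 tags (768 to 881) and a fold enrichment of 5.30 at -48 bp, in an interval of 729 bp. An interval beyond its far end, chromosome 19 from 12793373 to 12794120, reached 950 tags (891 to 1012). FOSB and JUNB thus each had more tags at the next interval past the start than at the start, with counting intervals that did not overlap. HOOK2 overlaps JUNB, so the JUNB start interval cannot be assigned to one of these genes.

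EGR1, a zinc-finger transcription factor, had the most tags at its start of the 9 genes. A single interval of 2012 bp, chromosome 5 from 138463875 to 138465886, held 4 summits, all before the start. They stood at -1242, -732, -374 and -81 bp with 1819, 1395, 2490 and 2135 tags. The summit at -81 bp falls within the nearer CArG box printed above. The highest, with a fold enrichment of 7.43 and an interval of 2393 to 2590 tags, lay farther out.

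NPAS4, a bHLH-PAS factor largely restricted to neurons and induced by calcium, had the fewest. The interval over its pair of listed starts, chromosome 11 from 66420671 to 66422114, had 259 tags (228 to 293) at -118 bp, close to the 2 CRE cores printed above. It reached 368 tags (331 to 408) only at 713 bp past the nearer start, with a fold enrichment of 5.38. The RefSeq model of NPAS4 extends farther upstream than these starts. At its outer end, chromosome 11 from 66408430 to 66409286 and -12.0 kb from the first listed start, an interval reached 1207 tags (1140 to 1277) and a fold enrichment of 11.0.

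NR4A1, an orphan nuclear receptor, had 2 listed starts, and neither was covered. The nearest summit to the outer one lay 1007 bp past it, just outside the 1 kb limit, with a fold enrichment of 5.34. The inner one, 14.9 kb into the gene, had a single summit at -631 bp with a fold enrichment of 4.11 and 475 tags (433 to 520). The gene held more intervals between and beyond these starts than at them. The strongest, chromosome 12 from 52032474 to 52033411 and 10.2 kb past the first start, reached a fold enrichment of 11.0 and 1369 tags (1297 to 1443). It lies within 1 kb of an end of LOC124902934, an overlapping long non-coding RNA gene. Another, from 52050588 to 52051974, held 4 summits and reached 4.64. Starts of NR4A1 other than the 2 listed were not used here.

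The synaptic genes differed from each other. HOMER1 encodes a scaffold of the postsynaptic density that binds metabotropic glutamate receptors, and a short form of it is induced by activity. Its start carried 5 summits in 1848 bp, with 1570 tags (1493 to 1650) at -47 bp and 1695 tags (1615 to 1778) at -452 bp. The fold enrichment of 8.70 there was the highest of the 9 genes. ARC encodes a capsid-forming protein that promotes the removal of AMPA receptors from the synapse. The interval at its outer end, chromosome 8 from 142613898 to 142615256, had 1 summit 42 bp beyond the gene with 773 tags (719 to 829) and a fold enrichment of 5.27. A separate interval followed at -1.04 kb with 587 tags (540 to 636).

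**Figure D1:**
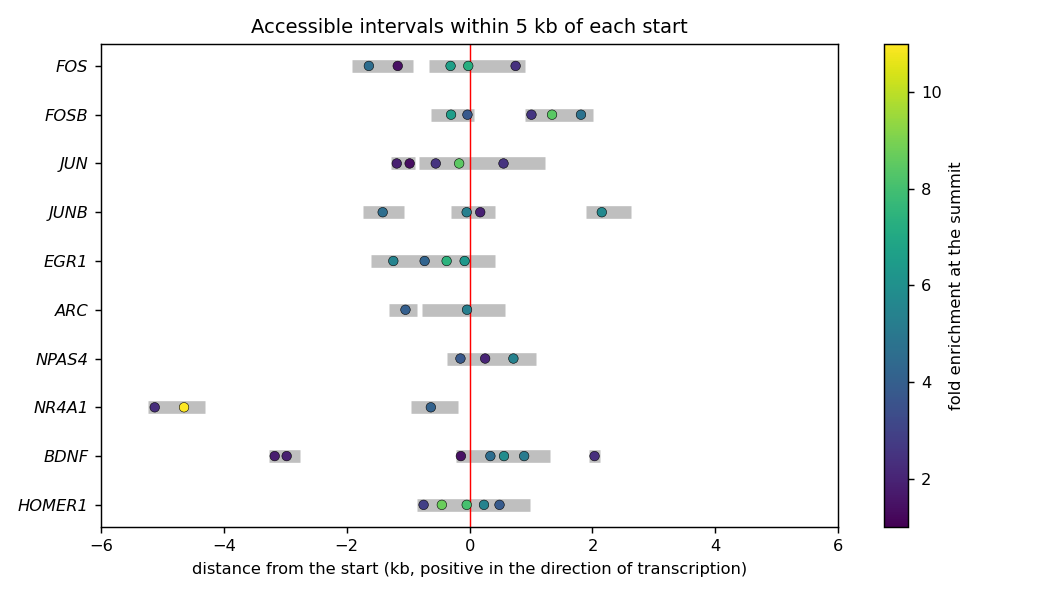
Intervals (grey bars) and their summits (points, coloured by fold enrichment) by distance in kb from the start of each gene, for all intervals with a summit within 5 kb. Distances are from the listed start nearest the strongest summit, or for ARC from the outer end. EGR1 shows 1 long interval with 4 summits before the start, whereas FOS, FOSB, JUN, JUNB, ARC, NR4A1 and BDNF show more than 1 interval.

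Set against all open starts, these genes were middling in tags and low in fold enrichment. Their median was 985 tags against 988 over the 11461 protein-coding genes with an open start, and 4 of 9 genes stood above that median, which by construction 50.0% of genes do. Single genes ranged from percentile 14.9 (NPAS4) and 20.5 (NR4A1) to percentile 95.4 (JUN) and 97.5 (EGR1). Median fold enrichment was 6.52 against 10.8, and 0 of 9 genes stood above the median of open starts (50.0% of genes do). Their percentiles ran from 6.47 for NR4A1 to 34.0 for HOMER1. Low values were also found in lists of cell type markers with an open start, neural or not. Above the median stood 0 of 9 pan-neuronal genes (median fold enrichment 7.91) and 0 of 6 glutamatergic genes (6.59). Among glial genes it was 0 of 4 (4.49), and among progenitor genes 1 of 8 (5.06). Pluripotency genes had 0 of 2 (5.55) and genes of non-neural tissues 0 of 1 (2.87). Genes that carry the signal to the nucleus, by contrast, had 10 of 25 (10.7).

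The local background behind that ratio was high at these genes. As worked out from the deposited values, backgrounds above a floor of 29.2 tags match an average over 10 kb. Whether that span includes the open region itself was not tested. The median background at the strongest start summit was 167.9 tags, against 87.5 over all open starts. EGR1, at 334.4 tags, stood at percentile 99.8 and JUN, at 267.8 tags, at percentile 99.2. NPAS4 was the exception, with 67.6 tags at percentile 29.8. In 7 of the 9 genes the background stood above percentile 80, and its part in their low fold enrichment was not tested. NPAS4 and NR4A1, the other two, were below percentile 25 in tags as well.

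**Figure D2:**
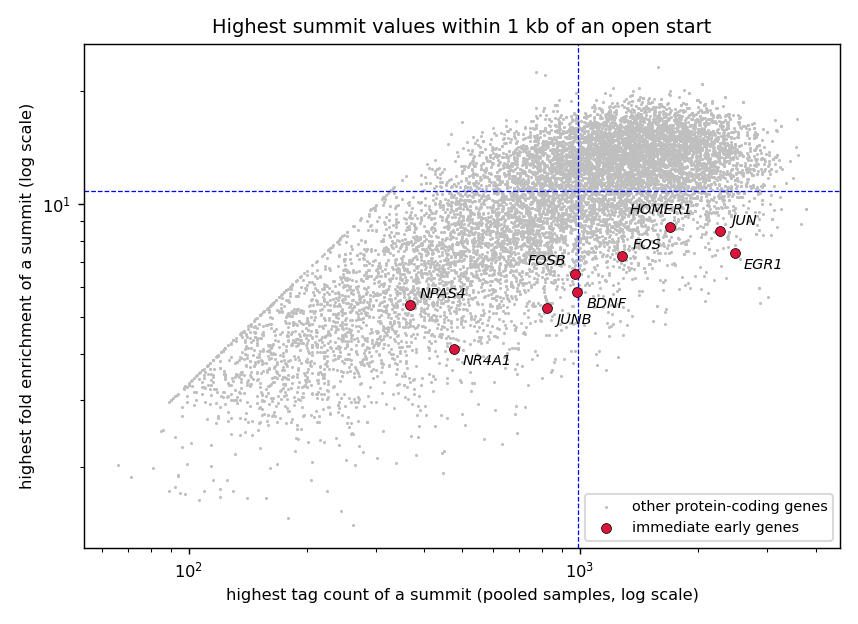
Highest fold enrichment against highest tag count of any summit within 1 kb of an open start, both on log scales. Grey points are protein-coding genes, red points the 9 immediate early genes with a listed start, and dashed lines the medians, a fold enrichment of 10.8 and 988 tags. All 9 lie below the horizontal line, with JUN and EGR1 far to the right.

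Open intervals were close together around these starts. At least 2 intervals had a summit within 5 kb of the start in 6 of the 9 genes, against 17.5% of protein-coding genes with an open start. Among marker genes with an open start, 7 of 8 neural progenitor, 5 of 9 pan-neuronal and 3 of 6 glutamatergic genes did so as well. The counts were lower for glial genes, at 1 of 4, and were 1 of 2 for pluripotency and 0 of 1 for non-neural tissue genes. The 6 were FOS, FOSB, JUN, JUNB, NR4A1 and BDNF, with JUNB and BDNF at 3 each. The further interval of JUN was weak, with a fold enrichment of 1.89, as were those of BDNF, with 2.37 and 1.86. Those of FOS, FOSB, JUNB and NR4A1 ran from 4.54 (FOS) to 11.0 (NR4A1). The measure of 2 intervals within 5 kb was chosen after the values were seen. The median width of the start intervals was 1525 bp against 1326 bp, with 5 of 9 at 1500 bp or more (31.3% of open starts). FOSB, JUNB and NR4A1 had narrow ones, all below percentile 5, and NPAS4, at 1444 bp, stood at percentile 63.2. The limit of 1500 bp was also chosen after the values were seen. At least 2 summits in the start interval were found for 8 of 9 genes, close to the 90.2% of all open starts.

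In the flanks, the 10 windows held from 3 intervals (HOMER1) to 13 (JUNB), with a median of 7.5 against 5 for all protein-coding genes. Of the 81 intervals, 13 lay at a start of the genes themselves, 2 at another of their outer ends and 9 elsewhere inside them. Another 19 lay within 1 kb of an end of a neighbouring gene and 38 were distal. Counted with those inside the genes or at their internal starts, 48 intervals lay more than 1 kb from both ends of every RefSeq gene, with a median of 4 per window against 2. NR4A1 had 10 of these, at percentile 96.1, and HOMER1 had 2, at percentile 45.5. A longer gene has a longer window. Among genes within 50% of their own length, NR4A1 stood at percentile 99.7 and HOMER1 at percentile 25.4. Distal positions were judged by outer gene ends only. A distal interval can lie inside a neighbouring gene, as in ERCC1 and HOOK2, and starts inside neighbours were not excluded. A position near a gene does not show which gene an interval acts on.

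The highest fold enrichment in any of the 10 windows was at an interval of FOS. It lay at -19.7 kb, on chromosome 14 from 75258641 to 75259783, outside any annotated gene. It had a fold enrichment of 18.2 and 1988 tags (1902 to 2077), and its fold enrichment stood at percentile 99.8 of all 65234 intervals. That is 2.50 times the fold enrichment of the FOS start and 1.55 times its tags, and the counting intervals of the tags did not overlap. FOS had 5 further distal intervals. The one at -1.64 kb, just before the promoter interval, had 801 tags (746 to 858), and the one 32034 bp past the start had a fold enrichment of 9.82.

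NR4A1 had the next strongest distal interval, 46.8 kb from its first start, on chromosome 12 from 52069000 to 52070445 and inside the neighbouring gene ATG101. It had a fold enrichment of 14.0 and 1587 tags (1510 to 1667), which is 3.40 times the fold enrichment at the inner NR4A1 start. Starts inside ATG101 were not used to class it, so whether it is an ATG101 promoter was not tested. EGR1 had an interval of 1751 bp with 4 summits at -15.4 kb, on chromosome 5 from 138448713 to 138450463. Its fold enrichment of 7.88 was 1.06 times that of the EGR1 start, but its 728 tags (676 to 783) were far fewer than the 2490 there. The 2 scales therefore order these EGR1 intervals differently. At ARC the strongest interval lay at -9.72 kb, with a fold enrichment of 6.65 and 419 tags (380 to 461), again above the start in fold enrichment and below it in tags. At JUN, BDNF and HOMER1 no distal interval reached the start on either scale. JUN had at most a fold enrichment of 6.53 and 267 tags, at 35.2 kb past the start. HOMER1, the longest of the 10 genes at 141 kb, held a single interval away from its start, 49.2 kb into the gene, with a fold enrichment of 4.67 and 140 tags (118 to 165).

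Counted over the 9 genes with a listed start, a distal interval had a higher fold enrichment than the start in 6, against 28.2% of protein-coding genes with an open start. By tags it did so in 3 (FOS, FOSB and NR4A1), against 19.7%. The count by fold enrichment is not separate from values given above. All 9 starts stood below the median fold enrichment of open starts, and the windows held a median of 4 distal intervals against 2. Among the 6, the ratio to the start ran from 1.06 (EGR1) to 3.40 (NR4A1). No comparison was made with starts of like fold enrichment. Including intervals at other gene ends, the counts were 6 (53.9%) and 5 (47.4%), which is near the share of all genes. The FOSB interval counted by tags is the one inside the gene described above. Distal was judged by outer gene ends, so starts inside neighbouring genes were not excluded from these counts or shares. By fold enrichment, the strongest distal interval lay inside a neighbour for FOSB (ERCC1), JUNB (HOOK2) and NR4A1 (ATG101). For FOS, EGR1 and NPAS4 it lay outside any annotated gene.

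**Figure D3:**
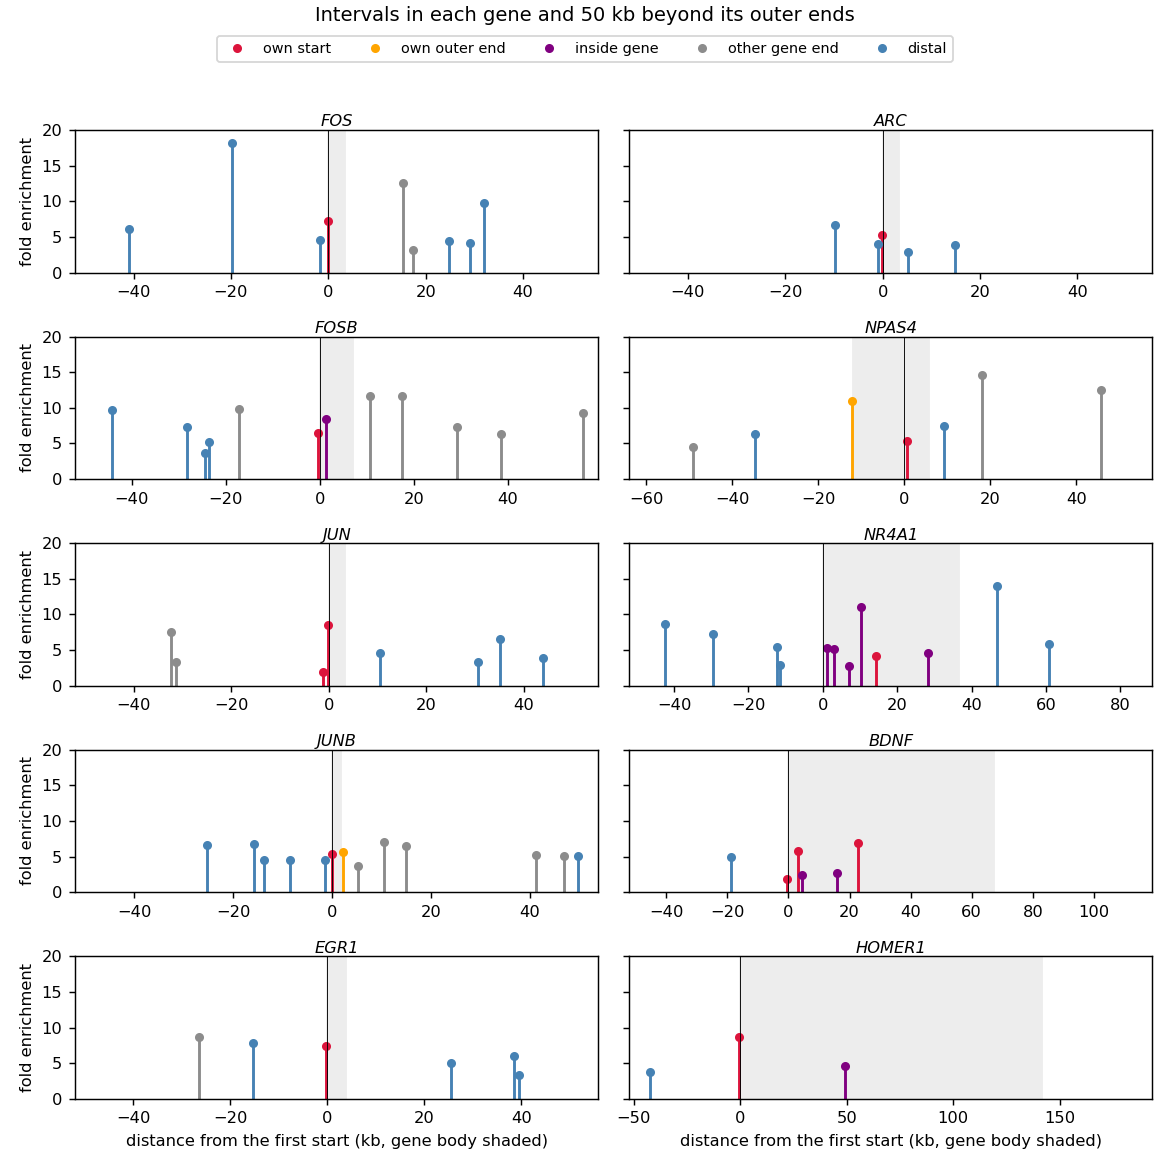
Fold enrichment of every interval (1 stem each, at its strongest summit) by distance in kb from the first listed start, or for ARC from the outer end, with the gene body shaded. Colours give the position class, with distal judged by outer gene ends only. The tallest distal stems are those of FOS at -19.7 kb (18.2) and NR4A1 at 46.8 kb (14.0), and HOMER1 shows 3 stems in all.

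BDNF encodes a secreted neurotrophin, the ligand of the receptor TrkB, and is known for several promoters that each splice to a shared coding exon. RefSeq windows gave 5 starts, at 27722030, 27720779, 27719566, 27701621 and 27659658 on the minus strand of chromosome 11. Accessibility was uneven over them. The outermost start was not covered. A weak interval between 27722328 and 27722832 peaked at -514 bp with 302 tags (269 to 338), 1.86-fold over background, and it lies within 1 kb of an end of LOC124902652. The start at 27720779 had no summit within 1 kb. The start at 27719566, 2.46 kb into the gene, was the only one covered by an interval. That interval, 27718264 to 27719788, was the strongest by tags in the BDNF window and peaked 560 bp past the start with 985 tags (924 to 1048) and a fold enrichment of 5.84.

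The start at 27701621, 20.4 kb into the gene, is the one whose CRE core is printed above, at -47 to -43. It lay 316 bp outside the widest interval of the window, which ran from 27698812 to 27701305, downstream of it. This interval was 2494 bp long and held 9 summits. Its 3 summits within 1 kb of that start had fold enrichments between 1.85 and 3.03. Its highest summit, 2480 bp past the start, had a fold enrichment of 6.91 and 797 tags (743 to 854), and lies within 1 kb of an end of BDNF-AS, the antisense transcript. The innermost start, 62.4 kb into the gene, was 39154 bp from the nearest interval. Inside the gene, 4 intervals were found in all, the remaining pair being weak, with fold enrichments of 2.37 and 2.74. Outside it, 1 distal interval at -18.6 kb had 172 tags (147 to 200). Whether any of these starts was in use cannot be read from accessibility.

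**Figure D4:**
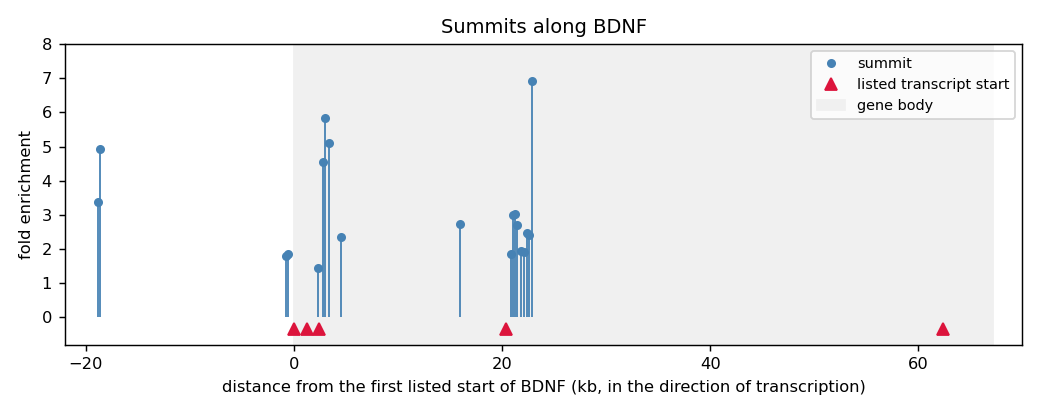
Fold enrichment of every summit in the BDNF window by distance in kb from the first listed start, with listed starts as red triangles and the gene body shaded. Summits gather near the third and the fourth start, the highest being 6.91 at 22.9 kb, and none lies near the start at 62.4 kb.

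Other genes of the response were read in the same way from lists written by textbook role, and genes without a listed start were left out. Of the other immediate early genes, 14 of 15 had an open start (72.3% of protein-coding genes). Their fold enrichments ran from 3.61 at IER2 to 12.9 at IER5, with a median of 7.96 and 2 of 14 above the median of open starts. ATF3, a stress-induced CREB-family factor, was the 1 without, though with a limit of 2 kb all 15 were open. At least 2 intervals within 5 kb were found for 10 of these 14. Of genes induced later in neurons, 15 of 17 were open, with a median fold enrichment of 8.10, from PER1, a clock gene, at 3.77 to RGS2, a regulator of G-protein signalling, at 13.6. INHBA and NRN1 were not open, and 8 of the 15 had at least 2 intervals within 5 kb.

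Genes that carry the signal to the nucleus were open in 25 of 25 cases (72.3% of protein-coding genes), from MEF2D at 1.72 to ELK1, an ETS partner of SRF, at 15.0. Their median fold enrichment of 10.7 was near the 10.8 of all open starts, and 5 of the 25 had at least 2 intervals within 5 kb (17.5% of open starts). Of receptors and binding partners of the encoded proteins, 11 of 15 were open, or 73.3%, near the 72.3% of all protein-coding genes, with a median of 9.45. ARNT, a dimer partner of bHLH-PAS factors, had the highest value at 16.1 and NPAS2 the lowest at 4.67, while FURIN, SHANK3, NPAS1 and BATF were not open. Whether the lists differ was not tested.

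The label of the cells was read against markers by the same rule, under which 72.3% of protein-coding genes were open. Starts were open for 9 of 9 pan-neuronal genes with a listed start, from ELAVL4 at 3.48 to SYN1 at 10.8, and for 6 of 10 glutamatergic genes, with SLC17A7, TBR1, NEUROD2 and NEUROD6 not open. They were open for 8 of 8 neural progenitor genes (PAX6 at 2.04 to FABP7 at 14.0) and 4 of 6 glial genes (MBP at 3.58 to PDGFRA at 8.02, without MOG and CSPG4). The counts were 2 of 7 for pluripotency genes (DPPA4 at 5.41 and DNMT3B at 5.68), with NANOG, TDGF1, ZFP42 and L1TD1 among those not open. For non-neural tissue genes it was 1 of 6 (TNNT2 at 2.87), with ALB, INS, MYH6 and KRT5 among those not open. The glial share, 66.7%, was near that of all protein-coding genes. With a limit of 2 kb the glutamatergic count became 8 of 10, and the other marker counts stayed the same. The part of other cell types in the values above was not tested.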

How the data were processed

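ATAC-seq peaks of 3 replicates (1 group, day 14) were analysed as 1 pooled list without a header, which the labels name as the optimal set by irreproducible discovery rate. The build is hg38, per the submitters' processing notes. The aligner and the peak caller are not given in the sources used here. The authors deposited for each summit a fold enrichment as a linear ratio and a −log10 p, and for each entry a score from 540 to 1000.

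Each tag count is the whole number that gives both deposited values when p is the Poisson chance of more tags and 1 is added to both terms of the ratio. The largest miss was 0.00079 units of −log10 p. Of backgrounds above the floor of 29.2 tags, 99.8% were within 0.0005 of a multiple of 0.015, which 1 tag of 150 bp spread over 10 kb would give. Pooled summits held 58 to 3783 tags (median 189). The depth of each replicate is unknown. Libraries were amplified by PCR, so tags are not independent molecules.

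Entries with the same bounds were merged, each interval taking the values of its summit with the highest −log10 p. At a start, the highest fold enrichment and highest tag count within 1 kb were taken. Starts came from RefSeq promoter windows and gene ends from a RefSeq table (GRCh38.p14), which matched all 10 genes by symbol. ARC and other genes without a window were scored for no start. No test was made. Counts, medians and percentiles are set beside all protein-coding genes. Named are the 10 genes, intervals at their starts and inside BDNF, the strongest others, and the highest, lowest and up to 4 unopened genes of each list. Other intervals were named after their values were seen. The genes and lists were chosen with earlier results of these data known. Alternatives were other windows, score limits, backgrounds and scales. The scripts ran under Python 3.11.15 (pandas 2.3.3, numpy 2.4.6, scipy 1.17.1, matplotlib 3.10.9), and tag recovery was tested on simulated data.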

Additional observations from a re-analysis of the deposited data

How the results depend on the processing

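The 9 open starts became 8 with a limit of 500 bp or when the interval had to cover the start, and stayed at 9 with a limit of 2 kb or a score of at least 830. The share of all genes with an open start, 72.3% for protein-coding genes, was 55.8% over genes of every kind. The 81 intervals became 182 as summits, 50 within 20 kb and 41 above the median fold enrichment. The 48 intervals away from all gene ends became 27 within 20 kb, and their median percentile of 74.6 was 88.6 among genes of similar length. The CRE core, in 24.6% of promoter windows, was in 32.1% of open ones. The 4 intervals inside BDNF became 15 as summits. For strength at the start, the median percentile of 19.5 by fold enrichment was 49.8 by tags, 60.8 against all intervals, 22.0 at the nearest summit, 22.8 within 500 bp and 23.9 within 2 kb. The cause was not tested. The other 25 of 38 alternatives left their counts within 1.5 times. No paired analysis was possible because the list holds no value per sample. Leaving out a replicate was likewise not possible. Relative counting error was largest at the weakest summits, where 58 tags were the fewest recorded.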

Other observations

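Several of the strongest intervals in these windows lay at neighbouring genes. At FOSB an interval with a fold enrichment of 11.6 and 992 tags (931 to 1056) peaked within TRU-TCA1-1, a selenocysteine transfer RNA gene, 10.6 kb from the FOSB start. Its neighbour at RTN2, 17.4 kb from that start, also reached 11.6, with 691 tags (640 to 744). In the NPAS4 window the interval at MRPL11, a mitochondrial ribosomal protein gene, had the highest fold enrichment, 14.6 with 824 tags (769 to 882), and that at PELI3 had 12.5 with 1080 tags (1017 to 1146). At FOS an interval 15.4 kb past the start, at an end of the long non-coding RNA gene LINC01220, had 12.6 with 1359 tags (1288 to 1433). Base composition at the starts also varied widely. The HOMER1 window was 78.7% G or C with 41 CpG, at percentile 96.2 of all promoter windows by G and C, whereas the innermost BDNF window was 41.7% with 8 CpG, at percentile 14.6.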
